A study of Saccharomyces cerevisiae with 13 samples.

Results

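The genes described here are 39 budding yeast (Saccharomyces cerevisiae) genes of G1/S control, DNA replication and sister chromatid cohesion, out of 6002 nuclear protein-coding genes. They were listed by name and by role, with earlier results of these data known, and all 39 were found among RefSeq genes of assembly R64, the counterpart of the sacCer3 build used for the peaks. A gene was counted as hit in a list when at least 1 bp of its body lay under a peak, and neighbouring genes are named as in a peak by the same rule, so they may lie in it only in part. The genes fell into 8 cyclin genes and genes of inhibitors of the cyclin-dependent kinase, 9 genes of transcription regulators, 15 of replication factors, and 7 of cohesion, clamp unloading and chromatin factors.

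Positions of DNA double-strand breaks had been mapped by Break-Seq, in which DNA ends are labelled with biotin in agarose plugs, captured and sequenced, in strains WFA72 (MEC1, here WT) and WFA73 (mec1-1, here mec1). Alpha factor (3 µM) arrested cells in G1, from which they were released into 200 mM hydroxyurea (HU) for 1 h, and for some samples they then recovered without HU for 1 h (R). HU lists called from the HU library alone came from mec1 Exp A, Exp B and Control and from WT Exp C and Control, and R lists, called against the HU library of their own experiment, from mec1 Exp A and Exp B and WT Exp C. In the Control experiment each strain had 2 further lists. Their descriptions name peaks of HU called over a mock labelling without biotinylated nucleotides and over G1, although their titles name the mock and G1 material, and they were read by their descriptions. A BamHI list remains, from G1-arrested mec1 cells of Exp A that never met HU and whose DNA was digested in the tube with that restriction enzyme.

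In the G1 phase, the cyclin Cln3 with its kinase starts a wave of transcription through the factors SBF (Swi4 with Swi6) and MBF (Mbp1 with Swi6). The wave provides the cyclins that drive budding and S phase, together with many replication and cohesion factors. Genes of this wave are active at the time when cells leave G1 into HU. Not all genes described here belong to the wave, and SIC1 is activated by Swi5 as cells pass from mitosis into G1. The peak lists hold no measure of gene activity, so when each gene was active was not tested. HU starves DNA synthesis of nucleotides by inhibiting ribonucleotide reductase, and Mec1 is the checkpoint kinase that holds the stalled forks in check. Cohesin, the ring of Smc1, Smc3 and Mcd1, is loaded in late G1 and locked onto sister chromatids as they are made.

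The 5 HU lists called alone held between 43 and 265 peaks, the R lists between 137 and 209, the lists called over mock or G1 between 60 and 547, and the BamHI list 1296. The lists covered between 109 and 2254 kb. The files hold no read counts, so depth is unknown, and a gene missing from a short list is not shown to be free of breaks. The design text gives Exp A and Exp B as repeats of the mec1 experiment and Exp C as a single WT experiment, but not whether separate colonies were used, so the spread between lists may be partly technical. In the Control experiment the lists of a strain shared the HU library: 230 of the 265 mec1 HU peaks had identical boundaries in the list called over mock and 260 in the list called over G1, so these lists are not replicates of each other.

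In mec1 cells in HU, 4 of the 39 genes were hit in Exp A, 3 in Exp B and 4 in Control, a mean of 3.67 ± 0.577 (SD, n = 3). Of all protein-coding genes, 5.4% were hit in Exp A, 5.91% in Exp B and 10.6% in Control, so the members' shares of 10.3, 7.69 and 10.3% lay above that background in Exp A and Exp B and just below it in Control. In WT cells in HU, 4 members were hit in Exp C (10.3%, against 5.18% of all genes) and 1 in Control (2.56%, against 1.48%), a mean of 2.5 ± 2.12 (n = 2). With 39 genes, 1 gene makes 2.56 percentage points, and the shares read no closer than that.

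**Figure D1:**
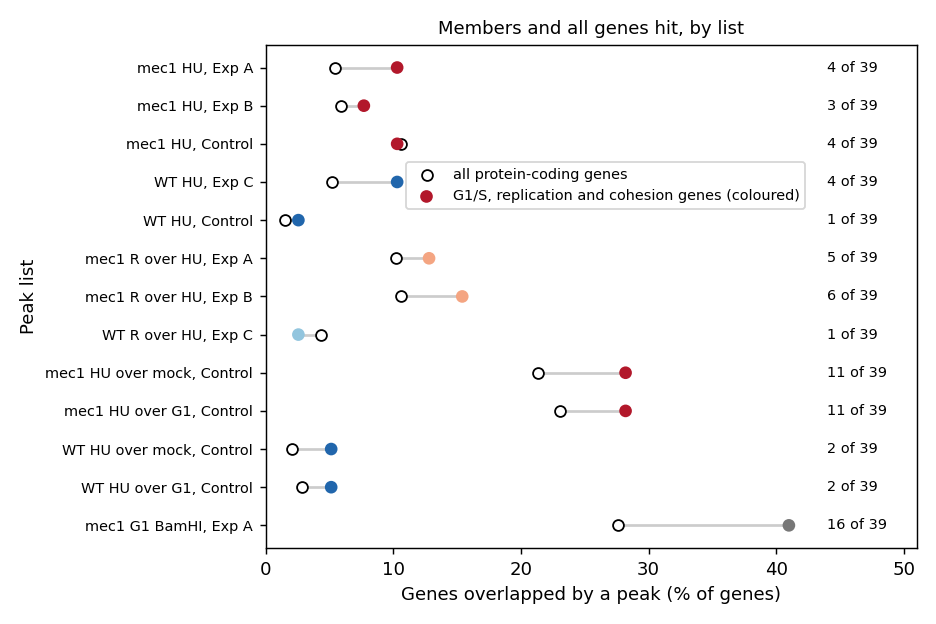
Share of genes overlapped by a peak (x axis, % of genes) in each of the 13 peak lists (y axis). Filled points are the 39 member genes, coloured by strain and treatment, open points are all 6002 protein-coding genes, and the numbers at the right count the members hit; the 2 points of mec1 HU Control nearly coincide, at 10.3 and 10.6%.

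The difference in the mean number of members hit between mec1 and WT in HU was 1.17, less than the SD of the WT lists. Over all genes, the mean share hit was 7.31% in mec1 and 3.33% in WT. Within the Control experiment the difference was 3 members (4 against 1), beside 637 against 89 of all genes. WT Exp C held as many hit members as mec1 Exp A and more than mec1 Exp B. Without the WT Control list the mean difference was -0.333, so its direction rested on that list. Per gene, SMC3 stood furthest apart, with 3 of 3 mec1 HU lists and 0 of 2 WT HU lists. Fisher's exact test over lists (two-sided) gave p = 0.1 for it, below which a design of 3 and 2 lists cannot go, and 1.0 after Benjamini-Hochberg adjustment over 6002 genes. By this exact test 0 genes of the genome passed an adjusted p of 0.05, 0 had an unadjusted p under 0.05, and 108 reached the smallest value.

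The cohesin gene SMC3 and the chromatin gene ASF1 were the 2 members hit in all 3 mec1 HU lists, where 1.73% of all genes were. SMC3 was also in no WT HU list, and 1.53% of all genes were likewise in all 3 mec1 HU lists and neither WT HU list. The list of members hit in both WT HU lists was empty, and 0.45% of all genes were hit in both. SMC3 codes for a core subunit of the cohesin ring (chromosome X, 299157 to 302849, minus strand). Its peak lay over the 3′ end of the gene in each mec1 HU list. In Exp A it ran from 298323 to 300197 and covered 28.2% of the gene. In Exp B it ran from 298102 to 300690 and covered 41.5%, and in Control from 298330 to 299584, covering 11.6%. The 1255 bp common to the 3 lists also reached the neighbouring NET1, whose product anchors the nucleolar phosphatase Cdc14, and APQ13. The Control peak had the same boundaries and the same score of 94.0 when called alone, over mock and over G1. Since no peak covered 50% or more of SMC3, a rule asking for that dropped the gene from all 3 lists, and a score of at least 100 left 2 of them. No R list hit SMC3.

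ASF1 codes for a histone chaperone that deposits histones H3 and H4 behind the fork (chromosome X, 196287 to 197126, plus strand). It was covered whole in mec1 HU Exp A and Exp B and for 89.4% in Control, and whole in WT HU Exp C and in mec1 R Exp A. WT HU Control and mec1 R Exp B had no peak on it. Peaks there were wide, between 7201 and 9018 bp in the mec1 HU lists and 11087 bp in mec1 R Exp A, against a median peak width of 3109 to 3230 bp in the mec1 HU lists. ASF1 lay near 1 edge of each of them. The bases common to the mec1 HU peaks, 189837 to 197037, also held NCA3, PHO86, YJL118W, RPE1 and ALB1, and the peak midpoints lay at -2850 to -3452 bp from the ASF1 start. In WT Exp C the peak was narrower, from 192669 to 197611 (4943 bp, equal to the median width of that list). PHO86, NCA3 and a tRNA gene were also in this peak. The same tRNA gene was in the ASF1 peaks of mec1 HU Exp A and mec1 R Exp A. By score the WT Exp C peak was 8 of 103 in its list, and the mec1 HU Exp B peak was 6 of 151. Since each mec1 peak here was over 5 kb, none was left when wider peaks were set aside.

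**Figure D2:**
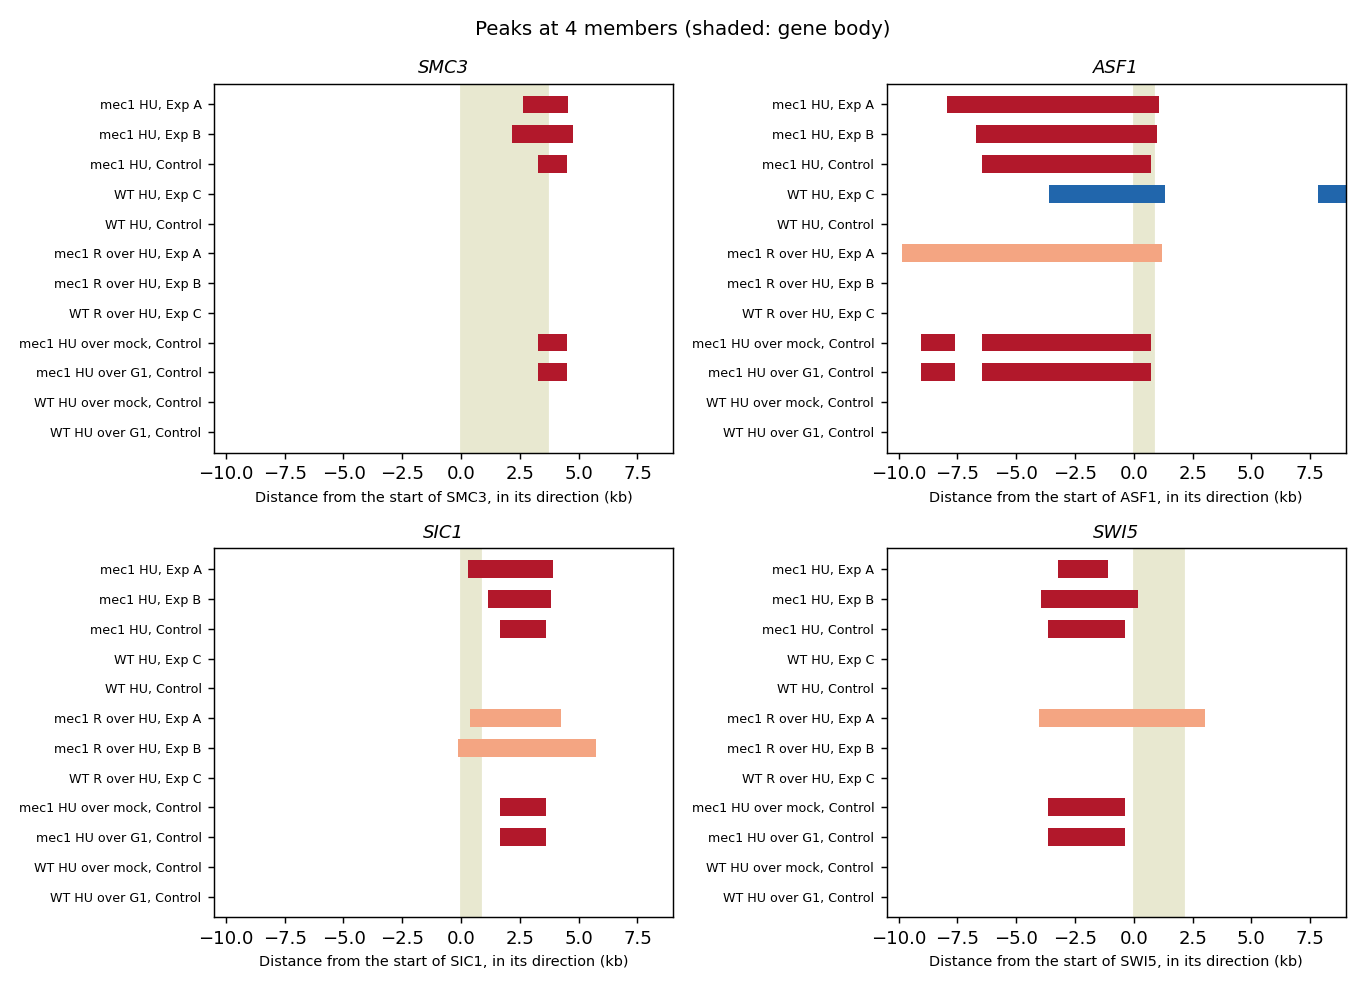
Peaks at SMC3, ASF1, SIC1 and SWI5 in the 12 lists from HU and R cells (y axis), by distance from the gene's start in its own direction (x axis, kb). Shading marks the gene body and bars mark peaks, red for mec1 HU, blue for WT HU and orange for mec1 R; the SMC3 peaks sit on the 3′ end in every mec1 HU list, ASF1 lies at the edge of wide peaks, and the SIC1 and SWI5 peaks reach the gene in some lists and stop beside it in others.

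The genes of the other ring subunits, SMC1 and MCD1, were in none of the mec1 HU lists called alone, but shared with SMC3 the mec1 Control lists called over mock and over G1. SMC1 (chromosome VI, 119429 to 123106, plus strand) was hit among HU lists called alone only in WT Exp C, where a peak from 117961 to 121628 covered its 5′ part (59.8% of the gene) and 22.4% of the neighbouring CDC4, the gene of a ubiquitin ligase subunit that targets Sic1. In mec1 Control it was covered whole by a peak called over mock and over G1 (119108 to 123548), but by none called from the HU library alone. MCD1, the gene of the kleisin subunit that closes the ring (chromosome IV, 444683 to 446383, plus strand), was hit in recovery in both strains. In mec1 Exp B the peak was 15032 bp wide and held 8 other genes. In WT Exp C it was 1198 bp wide, from 445610 to 446807, with no other gene, and ranked 133 of 137 by score. MCD1 was also covered whole in mec1 Control over mock and over G1. The clamp unloader gene ELG1 was hit over its 3′ end (29.3%) in mec1 R Exp A alone. CTF18, of the alternative clamp loader, and SPT21, a regulator of histone gene transcription, were hit in none of the 12 lists from HU and R cells.

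**Figure D3:**
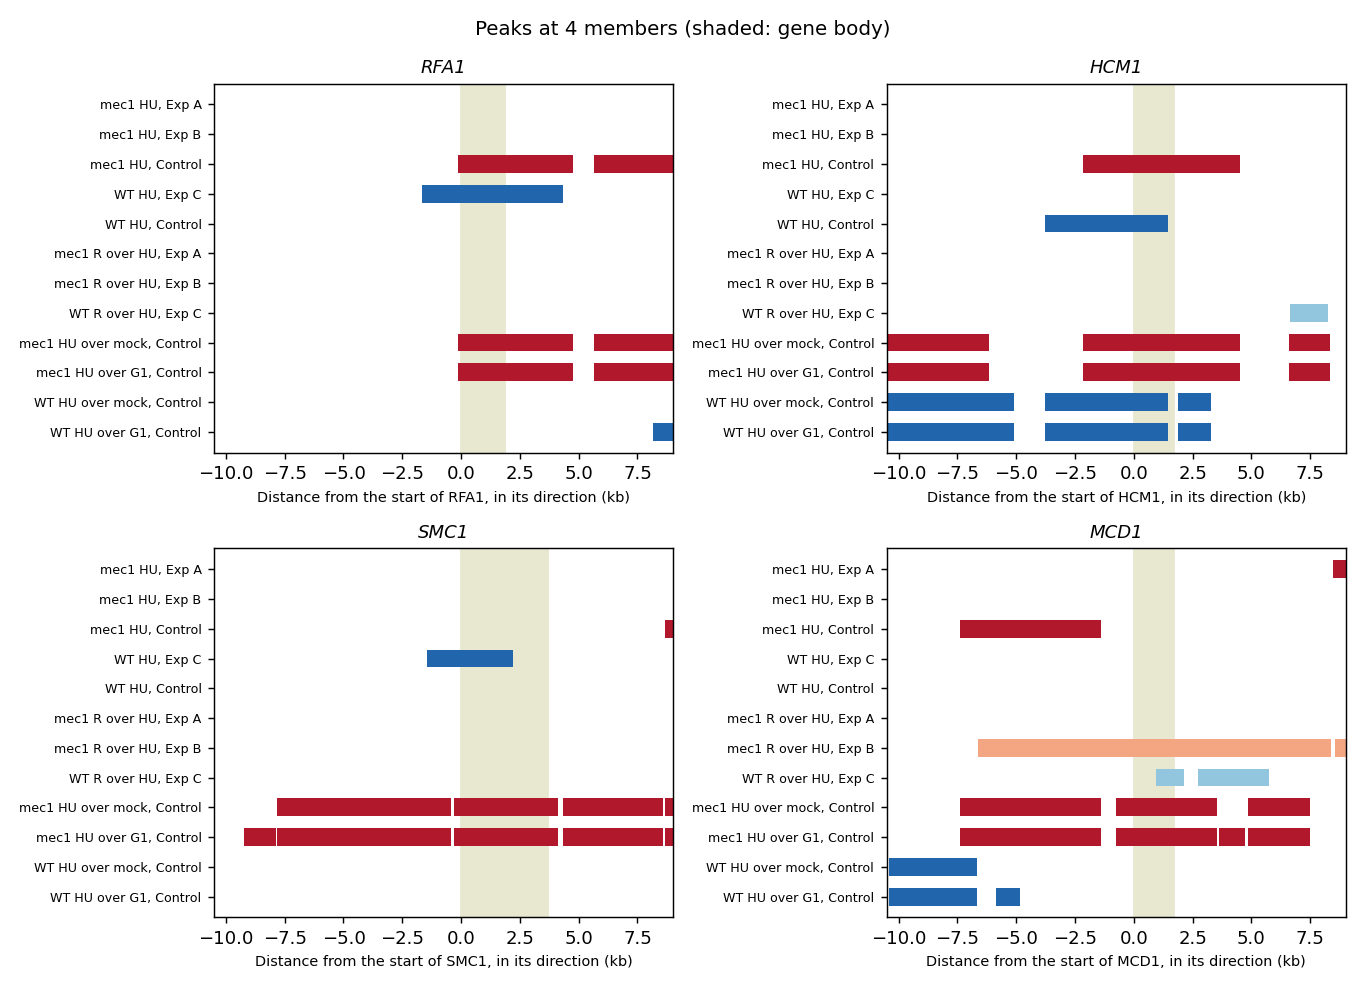
Peaks at RFA1, HCM1, SMC1 and MCD1 in the 12 lists from HU and R cells (y axis), by distance from the gene's start in its own direction (x axis, kb). Shading marks the gene body and bars mark peaks, red for mec1 HU, blue for WT HU, orange for mec1 R and light blue for WT R; RFA1 and HCM1 each have a peak in 1 mec1 and 1 WT list called alone, and MCD1 has peaks in both strains in recovery.

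Of the 8 cyclin and kinase inhibitor genes, HU lists called alone hit SIC1 in mec1 Exp A and PCL1 in WT Exp C. That was 1 of 8 in each list, beside 5.4 and 5.18% of all genes. The other HU lists called alone hit 0 of the 8. SIC1 codes for the inhibitor of the S phase cyclin kinase whose destruction opens S phase (chromosome XII, 286820 to 287674, plus strand). It was the only member hit in both mec1 R lists, where 3.78% of all genes were. The peak covered 64.2% of it in mec1 HU Exp A (287126 to 290734), 55.8% in R Exp A (287198 to 291050) and all of it in R Exp B (286691 to 292536). All 3 peaks continued downstream over EMP46 and GAL2, the galactose permease gene. In mec1 HU Exp B and Control a peak lay on the same neighbours and stopped 309 and 812 bp short of SIC1. The 1964 bp shared by the mec1 HU lists (288486 to 290449) lay on EMP46 and GAL2 and outside SIC1, so what recurred in HU was the region beside the gene. No WT list hit SIC1.

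PCL1, a G1 cyclin gene of the Pho85 kinase (chromosome XIV, 87897 to 88736, plus strand), was covered whole in WT HU Exp C, in mec1 R Exp A and in mec1 Control over mock and over G1. The WT peak, from 86249 to 89553, was centred within the gene, 4 bp from its start. All of these peaks also held RFC3, which codes for a subunit of the clamp loader. The S phase cyclin genes were hit apart from each other. CLB5 was hit whole in mec1 Control over mock and over G1, by a peak of 6352 bp that also held CLB2, a mitotic cyclin gene, and a tRNA gene. CLB6 was hit in mec1 R Exp B, over its 5′ end and 91.7% of its length, by a peak of 1941 bp that also held a tRNA gene. CLN1 and CLN2, the G1 cyclin genes induced by SBF, were hit in the same list over their 5′ parts (26.7 and 40.8% of the gene), and both peaks extended over the 250 bp upstream. The CLN2 peak had a score of 74.5 and ranked 190 of 209, and that of CLN1 ranked 142. CLN3 and SWE1, the gene of the kinase that restrains mitosis, were hit in none of the 13 lists.

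Of the transcription regulators, HCM1 was hit in the most lists. It codes for a forkhead factor that drives late S phase genes (chromosome III, 229310 to 231004, plus strand). Both strains had it in the Control experiment. The mec1 peak ran from 227163 to 233844 and covered the gene whole, and the WT peak from 225512 to 230773 covered 86.4%. Both also held TVS1, BUD31 and the tRNA gene SUP61. Called alone, these peaks had low scores, 67.3 in mec1 (220 of 265) and 62.0 in WT (40 of 43), and a score of at least 100 removed both. Called over G1, the WT peak kept its boundaries and was peak 3 of 90, and called over mock it was peak 4 of 60. Exp A, Exp B and Exp C had no peak on HCM1 in HU or R.

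SWI5 codes for a factor that activates genes, SIC1 among them, as cells pass from mitosis into G1 (chromosome IV, 748613 to 750742, minus strand). It was hit in mec1 HU Exp B over its first 190 bp, the smallest overlap of the 54 hits in the 12 lists, and whole in mec1 R Exp A (747706 to 754779). The mec1 HU peaks of Control and Exp A lay upstream of it and stopped 363 and 1110 bp away. The 2108 bp common to the 3 mec1 HU lists held EKI1 and KGD2 and no part of SWI5, as at SIC1. SWI6, the shared subunit of SBF and MBF, was hit in the Control experiment in both strains only when HU was called over mock or over G1. In WT the peak ran from 514126 to 519050 and covered 46.1% of the gene, and in mec1 it ran from 514275 to 523644 and covered SWI6 whole, together with its neighbour TOS4, a target of SBF, and SAM1. SWI4, MBP1, NRM1, YOX1 and PLM2 were hit in none of the 12 lists.

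Counted over the 12 lists together, replication factors were hit least, 3 of 15 in 1 or more lists, beside 36.5% of all genes. The other roles had 6 of 8 cyclin and inhibitor genes, 4 of 9 regulators and 5 of 7 cohesion and chromatin genes. Single lists did not keep this order. In mec1 HU Exp A, WT HU Exp C and mec1 R Exp B, 1 of 15 replication factors and 0 of 9 regulators were hit. The Control lists also share an HU library per strain. RFA1 codes for the large subunit of the single-strand binding protein RPA (chromosome I, 156754 to 158619, minus strand). It was covered whole in mec1 HU Control (153872 to 158756) and in WT HU Exp C (154292 to 160284), where its peak was 4 of 103 by score. Both peaks also held ERP1 and SWD1. CDC6, of the origin licensing factor (chromosome X, 69338 to 70879, plus strand), was covered whole by a peak of 5520 bp in mec1 HU Exp A with a score of 90.7, and for 70% by a peak of 1651 bp in mec1 Control over mock and over G1, on its 5′ end. CDC45, of the factor that travels with the replicative helicase, was hit over its 3′ end (19.4%) in mec1 R Exp B. The genes of the polymerase subunits and primase, POL1, POL12, PRI1, PRI2, POL2, DPB2 and POL3, of the clamp POL30, of RFA2 and RFA3, of the ligase CDC9 and of the replisome linker CTF4 had no peak in any of the 12 lists.

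**Figure D4:**
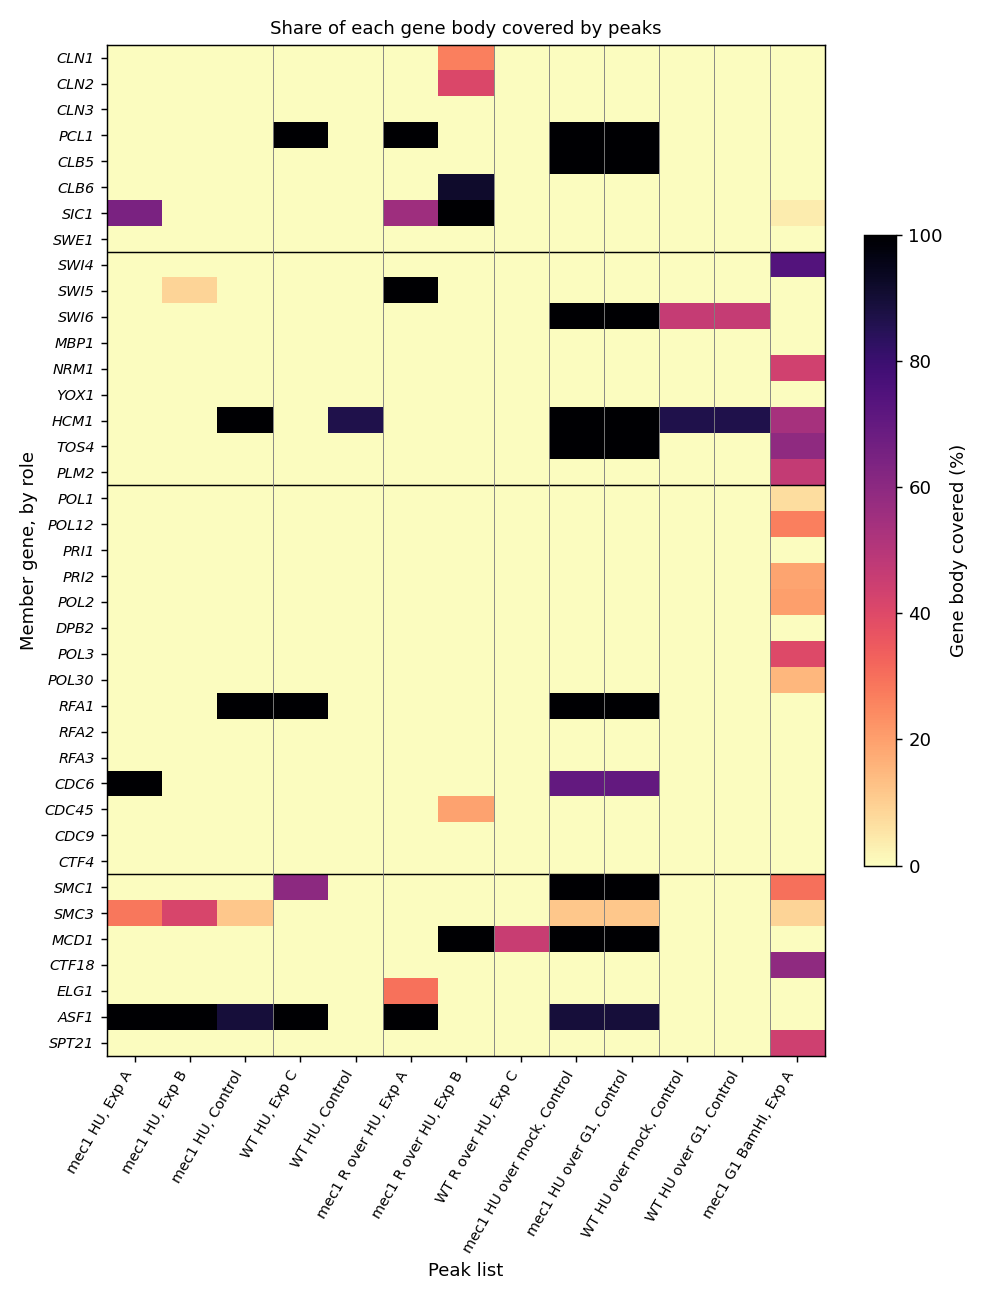
Share of each member's gene body covered by peaks (colour, 0 to 100%) for the 39 genes (rows, with lines between the 4 roles) in the 13 lists (columns). ASF1 (89.4 to 100% covered) and, in part, SMC3 (11.6 to 41.5%) are coloured in all 3 mec1 HU columns, most replication genes are empty outside the BamHI column, and the mec1 columns over mock and over G1 are alike.

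Recovery lists held 5 members in mec1 Exp A and 6 in Exp B, a mean of 5.5 ± 0.707 (SD, n = 2), which was 12.8 and 15.4% of the 39 genes against 10.2 and 10.6% of all genes. The WT R list held 1 (2.56%, against 4.35%). The mec1 mean was 1.83 above that of the mec1 HU lists, and 2 above it with experiments A and B compared in pairs, beside a rise over all genes from 324 to 612 genes in Exp A and from 355 to 639 in Exp B. The members hit in HU and in R were partly the same in Exp A and differed in Exp B. In Exp A, SIC1 and ASF1 were hit in both HU and R, 50% of the 4 HU members and 40% of the 5 R members. In Exp B, 0 of the 3 HU members were among the 6 R members. At SIC1, however, the mec1 HU Exp B peak (287983 to 290637), 309 bp from the gene, lay within the R Exp B peak (286691 to 292536). Over all genes, the shared part was 62.7% of the HU genes and 33.2% of the R genes in Exp A, and 42.8 and 23.8% in Exp B. In all, 6 members (CLN1, CLN2, CLB6, CDC45, MCD1 and ELG1) were hit in a recovery list and in no HU list called alone, which was 15.4% of the members against 10.7% of all genes. Of these, MCD1 was covered whole in mec1 Control HU over mock and over G1. Its mec1 Exp B recovery peak (438039 to 453070) also overlapped a mec1 Control HU peak called alone (437307 to 443286). That HU peak stopped 1397 bp from MCD1. The CLN1 recovery peak (660502 to 663081) overlapped a mec1 Control HU peak called over mock and over G1 (659076 to 661412), which stopped 1232 bp from CLN1. The recovery peaks on CLN2, CLB6, CDC45 and ELG1 overlapped no HU peak. An R list holds places with more signal than in HU, so a member missing from it is not shown to be free of breaks in recovery.

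Called over mock or over G1, the mec1 Control HU library gave 11 hit members in each case, the same 11 genes, which was 28.2% of the members against 21.3% of all genes over mock and 23.1% over G1. They were the 4 of the list called alone (HCM1, RFA1, SMC3 and ASF1) and 7 more, PCL1, CLB5, SWI6, TOS4, CDC6, SMC1 and MCD1. For CLB5, SWI6 and TOS4 no other list called alone or in recovery had a hit. The WT Control library gave HCM1 and SWI6 over mock and over G1, 5.13% of the members against 2.07 and 2.82% of all genes. These lists come from 1 HU library per strain, so the difference between strains has no replicate check.

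The BamHI list shows where cut ends were found in DNA that had not met HU. It hit 16 members (41%), against 27.6% of all genes. Its share rose with gene length over all genes, from 17.7% of genes under 1 kb to 58.3% of those over 4 kb, and the median length was 1743 bp for members and 1200 bp for all genes. Members under 1 kb were hit by BamHI in 42.9% of cases, those of 1 to 2 kb in 26.7% (28.4% of all genes of that length) and those of 2 to 4 kb in 46.7% (41.3%). In mec1 HU the share changed less with length, from 6.39% under 1 kb to 8.12% at 1 to 2 kb, 7.52% at 2 to 4 kb and 7.92% over 4 kb. Members under 1 kb were hit in 19.0% of cases in mec1 HU (7 genes, with hits on SIC1 and ASF1 only), members of 1 to 2 kb in 6.67% (15 genes) and members of 2 to 4 kb in 8.89% (15 genes). Both members over 4 kb, POL1 and POL2, were hit by BamHI and in none of the 12 other lists. Of the 16, 5 were also hit in HU or R lists (SIC1, HCM1, TOS4, SMC1 and SMC3). In those 12 lists 18 of all 39 members and 36.5% of all genes were hit. At 4 of the 5 members the BamHI peak overlapped a peak of the HU or R lists, with no such count given for all genes. At SMC3 the BamHI peak lay on the 5′ end (302520 to 304314), away from the HU peaks on the 3′ end. CLN3, SWE1, MBP1, YOX1, PRI1, DPB2, RFA2, RFA3, CDC9 and CTF4 were hit in none of the 13 lists.

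Of the 54 hits in the 12 lists, 29 covered the member whole (53.7%, against 50.8% of hits on all genes), 15 its 5′ end and 10 its 3′ end. The midpoint of the peak lay inside the member in 19 of them (35.2%), against 22.9% over the 6354 hits on all genes. The peak held a median of 2 other protein-coding genes, and in 3 hits (CLN2 and CLB6 in mec1 R Exp B and MCD1 in WT R) it held no other protein-coding gene. The median width of the peaks behind these hits was 4905 bp for members and 4638 bp for all genes. A Control peak found again over mock or over G1 counts in each list, so the 54 hits are not separate peaks. Members were also longer, with a median of 1743 bp against 1200 bp for all genes. The shares of midpoints inside genes were not adjusted for length.

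A further 58 genes of the same pathway, of G1/S control, origin licensing, the replisome and cohesin loading, gave 1, 5 and 3 hits in mec1 HU Exp A, Exp B and Control and 4 and 0 in WT HU Exp C and Control. Recovery gave 6 and 5 in mec1 and 1 in WT. In the same order the shares were 1.72, 8.62, 5.17, 6.9 and 0% in HU and 10.3, 8.62 and 1.72% in R, against the background given for each list. Called over mock or over G1, the mec1 Control library hit the same 16 of them (27.6%, against 21.3 and 23.1% of all genes). The WT library hit 0 (against 2.07 and 2.82%), and the BamHI list hit 21 (36.2%, against 27.6%). No gene of the 58 was hit in all 3 mec1 HU lists or in both WT HU lists. CSM3 and IRR1 were hit in both mec1 R lists, 3.45% of the 58 against 3.78% of all genes. In R Exp B their peaks had low scores, 77.7 and 60.8, where the lowest in that list was 50.9. CSM3, of the fork protection complex (chromosome XIII), was covered whole in mec1 HU Exp B (364119 to 372190) and Control (364784 to 370548), in WT HU Exp C (366896 to 372635) and in both mec1 R lists. IRR1, of the cohesin subunit also called Scc3 (chromosome IX), was hit over 11% of its length in mec1 HU Exp B (307551 to 313409) and over 32.9 and 32.1% in the mec1 R lists.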

How the data were processed

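The 13 peak lists were used as deposited. For Exp A, B and C the submitters' processing notes name Bowtie2, BWA 0.6.2 and MACS 1.4.1, and for the Control experiment BWA, with MACS named in the labels. The build is sacCer3 throughout. The sources used here state no filters. Each peak's score is the authors' deposited value, of unstated scale, and served for ranks and a minimum inside 1 list.

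Starts were taken as 0-based (BED) and raised by 1, and numeric chromosome names of the BamHI list became Roman. Strand came from the systematic gene name. Overlaps were computed in Python 3.11.15 with pandas 2.3.3 and, after a test on simulated data, Fisher's exact test over lists with scipy 1.17.1, Benjamini-Hochberg adjusted over 6002 genes.

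The members and lists were chosen with earlier results of these data known. Members were to be described with their peaks when hit in 2 of the mec1 HU lists, any WT list, both mec1 R lists, or both mec1 lists over mock and G1. SWI5, CLN1, CLN2, CLB6, CDC45 and ELG1 fall outside that rule and were described after their values were seen, as were genes sharing peaks with members other than SMC3, ASF1 and SIC1. Other pathway genes were named when hit in all HU lists of a strain or both mec1 R lists. Promoter sequences were not analysed here. Alternatives were 5 other hit rules, lists left out, and differences within experiments.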

Additional observations from a re-analysis of the deposited data

Results flagged for a closer look

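The number of members hit changed in opposite directions from HU to R in the strains, and this difference was not tested. In mec1 the R list held 1 member more than the HU list of the same experiment in Exp A and 3 more in Exp B, while in WT Exp C the number was lower, with a change of -3. Over all genes the change was 288 and 284 in mec1 and -50 in WT. R lists were called against HU and HU lists alone, so the calling mode changed together with the time point, and WT has 1 such experiment.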

How the results depend on the processing

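Mean hits per list, 3.67 in mec1 HU and 5.5 in mec1 R, were 2.33 and 3.5 when 50% or more of a gene had to be covered, 1.0 and 1.0 with 200 bp around peak midpoints, and 2.0 and 3.0 with peaks of at most 5 kb. A score of at least 100 gave 2.67 in mec1 HU. The mec1 minus WT difference in HU reversed to -0.167 with 50% of the gene covered and to -0.5 with midpoints; it lay between -0.333 and 2.67 with 1 list left out. The R minus HU difference in mec1 was 0 with midpoints, 1 with peaks of at most 5 kb and 2 with the replicate block (experiments A and B). The 2 members in all mec1 HU lists became 1 with 50% of the gene covered (ASF1), with a score of at least 100 (ASF1) and with peaks of at most 5 kb (SMC3), and 0 with midpoints. SIC1, in both mec1 R lists, was in 1 of them with peaks of at most 5 kb, and the count in both was 0 there and with midpoints. With 1 list left, counts that ask for both lists ranged from 1 to 4 in WT HU and from 5 to 6 in mec1 R. Adding 250 bp upstream changed none of the 49 counts of lists per member, midpoints 32, peaks of at most 5 kb 22, 50% of the gene 11 and the score 9 (alternatives for single members were added after seeing the data). Fewer or shorter peaks enter by construction; no other cause was tested.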
